A study of Mus musculus with 27 samples.

Results

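Rb1-null fetal liver cells were followed through their first 24 h of culture on 9 of the 27 arrays of the series. Every array labelled as an Rb1 knockout at 0 h (5 arrays) or at 24 h (4 arrays) was taken. All genes on them were considered, and the dimmest 40% were left out of the tests. The genes named below were in part chosen by their values, by a rule given with the processing. The series measured total RNA from mouse fetal livers of embryonic stage E14.5 with Affymetrix expression arrays, at 0, 24 and 48 h of culture. Its 4 genotypes were wild type (WT), a knockout of Rb1 (Rb1KO), a knockout of p107, whose gene symbol is Rbl1 (p107KO), and a knockout of both (DKO). At 0 h and 24 h there were 3 and 2 WT arrays, 2 and 2 p107KO arrays, and 2 and 1 DKO arrays. Cells of all 4 genotypes were kept untreated in the same Iscove's medium rich in fetal bovine serum, and the labels name no added cytokine. Nothing in the labels tells if replicate arrays stem from different embryos or litters. The p-values therefore cover the spread among the arrays at hand, and part of it may be technical. The labels do not describe the Rb1 allele itself.

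RB1 is a pocket protein that binds E2F transcription factors and holds back the genes of S phase, and p107 is one of its relatives. The fetal liver at this age is the main site of blood formation: erythroblasts mature in islands around resident macrophages, among hepatoblasts, sinusoidal endothelium and stroma. Embryos without Rb1 are known for anaemia and a failure of late red cell maturation.

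The knocked-out gene was read first. Rb1 signal in Rb1KO was 2236, 1931, 1507, 2047 and 2825 at 0 h and 2659, 3363, 4355 and 4433 at 24 h. WT arrays gave 6144, 6579 and 7105 at 0 h and 10309 and 8589 at 24 h. Rb1KO arrays were thus below every WT array at both times, while the Rb1KO ranges at 0 h and 24 h overlapped. Within Rb1KO the gene rose by 0.80 ± 0.16 (SE, adjusted p = 0.000268) on the log2 scale. The 2 other pocket protein genes did not pass the test over these 24 h. Rbl1 had signals of 3502, 1837, 1689.7, 1518 and 2174 at 0 h and 2508, 1814, 2212 and 2192 at 24 h, with a log2 change of 0.08 ± 0.18 (SE, adjusted p = 0.731), and Rbl2 changed by -0.35 ± 0.23 (SE, adjusted p = 0.205). Both ranges overlapped between the times.

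The labelled tissue was checked against its markers. At 0 h albumin (Alb), alpha-fetoprotein (Afp) and the red cell factors Klf1 and Gata1 had mean signals of 41954, 38493, 21595 and 6571 in Rb1KO, against array medians between 81.0 and 119.3 over all 27 arrays. Replicate 5 at 0 h and replicate 1 at 24 h correlated least with the other arrays of their time among the Rb1KO arrays, and replicate 1 at 24 h held the brightest probe set of the 9, at 143080. Both are among the 4 arrays said below to stand apart. The others are replicate 1 of p107KO at 24 h and the only DKO array at 24 h. Calls that were lost without replicate 1 of Rb1KO at 24 h are named as such. Signal of Y-linked genes was present on 1 Rb1KO array at 0 h and on 1 at 24 h. No WT array had it, every DKO array had it, and p107KO arrays were mixed at both times. Y-linked signal and genotype thus cannot be told apart between DKO and WT, and are partly confounded between Rb1KO and WT.

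The first 24 h altered the RNA of these cells broadly. Of 10916 genes tested, 5568 (51.0%) passed an adjusted p of 0.05, with 2227 higher (20.4%) and 3341 lower (30.6%) at 24 h. For 3895 genes (35.7%) the 0 h and 24 h arrays did not overlap, 1492 of them higher (13.7%) and 2403 lower (22.0%) at 24 h. At least 2-fold changes were found in 591 higher and 1519 lower genes. A change is given below as log2 of signal plus 32 at 24 h against 0 h, with the standard error (SE) of the limma fit and a Benjamini-Hochberg adjusted p over all genes tested. Folds are on the same signal + 32 scale, which understates changes of dim genes. The median gene changed by -0.09 on this scale, and the split of calls depended on scaling: 40% of calls were higher with the authors' scaling, 52.1% after quantile normalization and 61.2% after median centring, which moved the median of all genes by 0.14 and 0.25. Small shifts of a whole gene family are therefore given beside those values. Counts within a list are to be read beside the 20.4% of all genes tested that rose and the 30.6% that fell.

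Liver parenchyma and its neighbours made up the steepest falls. Of 26 markers of hepatoblasts and hepatocytes, 25 fell and 1 rose, with a median log2 change of -6.13. Serpina6, the plasma carrier of corticosteroids, is not in this list and fell furthest of all genes tested on this scale. Its signal was 30353, 32689.9, 24847, 22366 and 28578 at 0 h and 138, 11.4, 12.1 and 81.6 at 24 h. Every array at 0 h was bright and every array at 24 h was near the floor of the arrays, a change of -8.46 ± 0.32 (SE, adjusted p = 4.82e-15). Apoa1, the main protein of high-density lipoprotein, fell by 7.73 log2 units (adjusted p = 4.31e-13), and of the fibrinogen chains Fga fell by 7.30 log2 units (adjusted p = 8.70e-13) and Fgg fell by 7.06 log2 units (adjusted p = 9.93e-11). Kininogen 1 (Kng1), also outside the list, fell by 6.72 log2 units (adjusted p = 8.07e-13) and the thyroid hormone carrier transthyretin (Ttr) by 6.71 log2 units (adjusted p = 1.27e-10). Alb and Afp fell less, by 3.91 log2 units (adjusted p = 6.11e-08) and 3.18 log2 units (adjusted p = 6.86e-08), and kept mean signals of 3061 and 4511 at 24 h. Hnf4a, a transcription factor that specifies hepatocytes, fell by 3.42 log2 units (adjusted p = 6.76e-09). The exception was metallothionein 2 (Mt2), a metal-binding protein made by many cell types, with signals of 23263, 19206, 15516, 17469 and 14517 at 0 h and 57597, 32524, 37092 and 32598 at 24 h. All 24 h arrays lay above all 0 h arrays for Mt2, with a rise of 1.13 ± 0.23 (SE, adjusted p = 0.000243).

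Stromal and endothelial markers fell with them. Of 23 markers of stellate cells, fibroblasts and mesothelium, 22 fell and none rose (median -3.56), and of 20 endothelial markers 18 fell and none rose (median -1.67). The fibrillar collagen gene Col3a1 had signals of 5744, 5415, 4968, 3195 and 4551 at 0 h and 8.7, 53, 44.5 and 101 at 24 h. Its 0 h and 24 h arrays were far apart, with a log2 change of -5.94 ± 0.26 (SE, adjusted p = 5.72e-14). Col1a1, a chain of type I collagen, fell by 4.56 log2 units (adjusted p = 5.58e-12), fibronectin (Fn1) by 4.17 log2 units (adjusted p = 2.78e-11) and the basement membrane collagen Col4a1 by 3.20 log2 units (adjusted p = 6.12e-11). Lyve1, the hyaluronan receptor of liver sinusoids, fell by 5.36 log2 units (adjusted p = 1.87e-15), from signals of 2243, 1689.7, 1772, 1401 and 2116 to 10.9, 6.1, 11.9 and 25.4. Stab2, a scavenger receptor of the same endothelium, fell by 3.90 log2 units (adjusted p = 5.00e-12). VE-cadherin (Cdh5) fell by 1.83 log2 units (adjusted p = 1.09e-05) and the tight junction protein claudin 5 (Cldn5) by 2.82 log2 units (adjusted p = 6.03e-09).

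Markers of the macrophages that sit at the centre of red cell islands were lower as well: 16 of 19 fell and none rose (median -1.34). Vcam1, an adhesion receptor that holds erythroblasts to these macrophages, had signals of 3606, 2719, 1975, 2312 and 2389 at 0 h and 184, 178, 147 and 188 at 24 h. The 24 h arrays were uniformly low and did not overlap with the 0 h arrays, a change of -3.65 ± 0.21 (SE, adjusted p = 2.34e-12). The secreted macrophage protein Cd5l fell by 5.0 log2 units (adjusted p = 1.70e-07), the mannose receptor Mrc1 by 3.77 log2 units (adjusted p = 2.70e-13), the complement gene C1qa by 3.43 log2 units (adjusted p = 4.78e-07) and the engulfment receptor Mertk by 2.01 log2 units (adjusted p = 5.85e-07). The iron exporter ferroportin (Slc40a1), which erythroblasts also make, fell by 1.30 log2 units (adjusted p = 8.86e-08). Adgre1, which encodes the F4/80 antigen, did not pass the test, with a log2 change of 0.17 ± 0.20 (SE, adjusted p = 0.508).

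Imprinted genes of fetal growth followed the same course, with 11 of 12 lower and 1 higher (median -2.75). Dlk1, a surface protein of hepatoblasts, fell by 6.31 log2 units (adjusted p = 4.97e-16), the growth factor Igf2 fell by 5.45 log2 units (adjusted p = 1.03e-13), the hydrolase-like gene Mest fell by 5.48 log2 units (adjusted p = 1.04e-13) and the zinc finger factor Plagl1 fell by 5.08 log2 units (adjusted p = 1.87e-15). Cdkn1c, the imprinted inhibitor of cyclin-dependent kinases, fell by 3.78 log2 units (adjusted p = 2.11e-10). Igf2r, the receptor that clears IGF2, fell by 2.17 log2 units (adjusted p = 9.41e-09). Gnas, which encodes a stimulatory G protein, was the higher one, with a log2 change of 0.73 ± 0.12 (SE, adjusted p = 3.13e-05), a call that was lost when the probe sets of a gene were averaged.

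The summed signal of a marker list shows the size of these falls. Hepatocyte markers summed to between 310110 and 415400 at 0 h and between 40809 and 77631 at 24 h in Rb1KO. Mt2, the list member that rose, is in these sums. By its signals given above it made up a large part of those at 24 h, so the other members fell by more than the sums show. Stromal markers summed to between 38642 and 59354 at 0 h and between 6159 and 9214 at 24 h, endothelial markers to between 10549 and 13065 at 0 h and between 1892 and 3637 at 24 h and resident macrophage markers to between 23416 and 33891 at 0 h and between 9507 and 16180 at 24 h. For each of these lists the highest 24 h array was below the lowest 0 h array. WT arrays at 24 h summed to 45701 and 48082 for hepatocyte markers, 7794 and 8040 for stroma and 3062 and 3185 for endothelium, within the Rb1KO range at 24 h, and to 11965 and 18051 for macrophages, which overlapped it. In a bulk RNA sample, fewer cells of a type and less RNA per cell cannot be told apart. Rises and falls described below for blood cell genes occurred on arrays on which these markers fell, and the part of that loss in them was not tested.

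**Figure D1:**
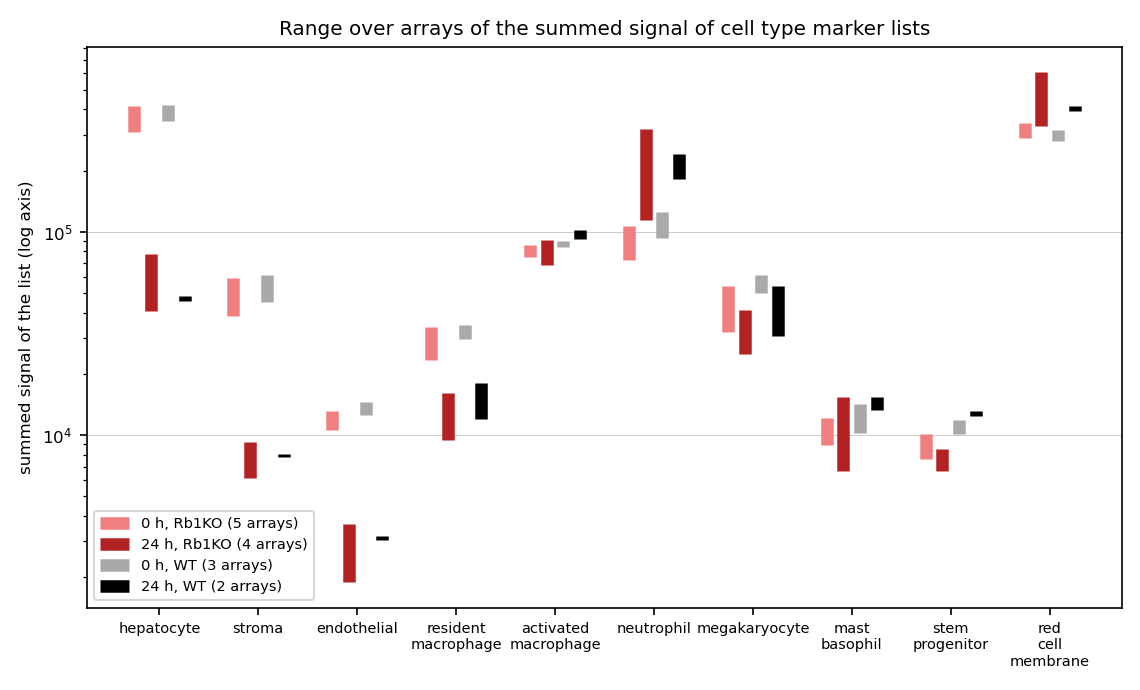
Summed signal of 10 marker lists (log axis) in Rb1KO and WT at 0 h and 24 h, where each bar spans the lowest to the highest array of a group. Hepatocyte, stromal, endothelial and resident macrophage sums were lower at 24 h on all arrays of both genotypes, while the neutrophil sum of Rb1KO ran from 72927 to 106889 at 0 h and from 113558 to 321653 at 24 h. The hepatocyte sum includes Mt2, which rose in Rb1KO.

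Not all myeloid genes fell. In a list of activated myeloid and lysosomal genes, 7 of 20 rose and 6 fell, or 6 and 7 after quantile normalization and 8 and 4 after median centring. The 6 falls were near the 30.6% of all genes tested. Larger rises were seen in 2 myeloid genes outside this list, Clec4d and Acod1. Clec4d, a C-type lectin of inflammatory macrophages and neutrophils, had signals of 99.7, 109, 109, 64.7 and 148 at 0 h and 5435, 2338, 1605 and 2580.3 at 24 h. It was dim on all 0 h arrays and bright on all 24 h arrays, with a log2 change of 4.33 ± 0.27 (SE, adjusted p = 1.29e-11). Acod1, the enzyme that makes itaconate, was at 8.9, 53.3, 4.3, 6.3 and 10.8 at 0 h and at 2010.5, 2417, 1367 and 1964 at 24 h. That rise was 5.39 ± 0.24 (SE, adjusted p = 6.10e-14). Within the list, Gpnmb, a glycoprotein of lipid-laden macrophages, rose by 3.77 log2 units (adjusted p = 8.66e-11) and galectin 3 (Lgals3) by 1.39 log2 units (adjusted p = 1.12e-06). The lysosomal protease Ctsl fell by 1.62 log2 units (adjusted p = 7.14e-07).

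Chemokine and NF-kB target genes were mostly higher, with 11 of 16 up and 2 down (median 0.85, against -0.09 for all genes). Ccl3, a chemokine of activated macrophages and neutrophils, rose from signals of 6.9, 14, 3.7, 2.8 and 47.8 to 898, 1069, 451 and 612, with a log2 change of 4.07 ± 0.33 (SE, adjusted p = 8.44e-10). Ccl5, which attracts T cells and monocytes, rose by 3.57 log2 units and the monocyte attractant Ccl2 by 2.27 log2 units, with adjusted p of 9.00e-10 and 3.74e-07. Relb, an NF-kB subunit, rose by 2.60 log2 units (adjusted p = 2.46e-07). Interleukin 1 beta (Il1b) rose by 1.47 log2 units (adjusted p = 4.74e-06).

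Neutrophil granule genes gave 6 rises and 1 fall among 17 (median 0.39), or 11 and 0 after median centring (median 0.64). S100a9, a subunit of calprotectin, had signals of 15286, 19145, 16564, 10209 and 16189 at 0 h and 85323, 33856, 25502 and 26872 at 24 h. Replicate 1 at 24 h stood far above the other 3, although even the lowest 24 h array lay above every 0 h array, and the rise was 1.31 ± 0.30 (SE, adjusted p = 0.000979). Its partner S100a8 rose by 1.21 log2 units (adjusted p = 0.0014) and the secondary granule protein Lcn2 by 1.14 log2 units (adjusted p = 0.000801). The primary granule genes Mpo and Prtn3 did not pass, with log2 changes of 0.38 ± 0.18 (SE, adjusted p = 0.0799) and 0.49 ± 0.25 (SE, adjusted p = 0.106). Both passed after median centring and without some single arrays, with adjusted p down to 0.0078 for Mpo and 0.0168 for Prtn3.

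Of 20 megakaryocyte and platelet genes, 9 fell and 1 rose. Coagulation factor V (F5) fell by 2.05 log2 units (adjusted p = 1.13e-08), the platelet chemokine Ppbp by 1.69 log2 units (adjusted p = 3.88e-06) and the von Willebrand receptor subunit Gp9 by 1.23 log2 units (adjusted p = 7.18e-05), whereas platelet factor 4 (Pf4) stayed short of the threshold with a log2 change of -0.32 ± 0.19 (SE, adjusted p = 0.16). Pf4 passed after quantile normalization and without replicate 1 at 24 h, with adjusted p down to 0.0136. Of 17 stem and progenitor genes, 7 fell and 1 rose. The surface marker Cd34 fell by 0.71 log2 units (adjusted p = 0.00103), the membrane protein Prom1 by 1.21 log2 units (adjusted p = 1.60e-05) and the factor Hlf by 1.13 log2 units (adjusted p = 0.000217). Mllt3, a partner of transcription elongation complexes that megakaryocytes and erythroid cells also make, rose by 1.31 log2 units (adjusted p = 1.49e-06). Mast cell and basophil genes gave 2 rises and 1 fall among 9, or 5 and 1 after quantile normalization. Carboxypeptidase A3 (Cpa3) was one of the rises, with a log2 change of 1.29 ± 0.23 (SE, adjusted p = 7.26e-05).

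**Figure D2:**
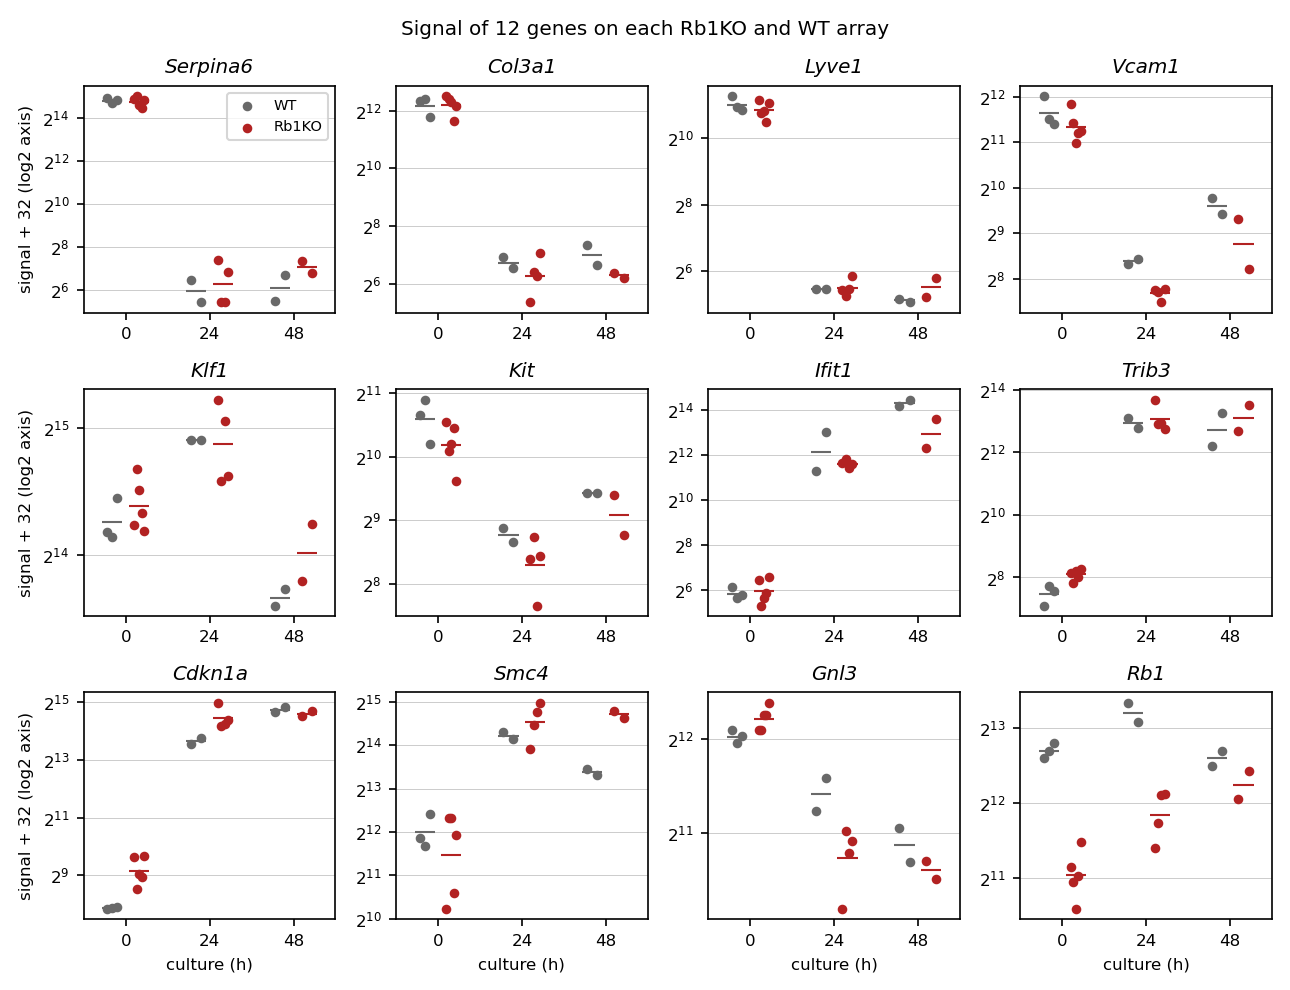
Signal plus 32 (log2 axis) of 12 genes on each WT and Rb1KO array at 0, 24 and 48 h, with a bar at each group mean. Serpina6, Col3a1, Lyve1, Vcam1, Kit and Gnl3 were lower and Ifit1, Trib3, Cdkn1a and Smc4 higher on all 4 Rb1KO arrays at 24 h than on all 5 at 0 h, and Klf1 and Rb1 overlapped between the times.

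Genes of the red cell lineage moved both ways. Of 18 erythroid transcription factor genes 6 rose and 3 fell (median 0.26), or 5 and 5 after quantile normalization (median 0.14). Tal1, a helix-loop-helix factor needed for all blood formation, had signals of 16054, 14834, 13871, 16634 and 15726 at 0 h and 27864, 21444, 24134 and 23355 at 24 h. No 24 h array was below a 0 h array, and the rise was 0.65 ± 0.13 (SE, adjusted p = 0.0002). Nfe2, a factor that acts at the globin loci, rose by 0.85 log2 units (adjusted p = 2.63e-05). Gata1, the lineage's central factor, rose by 0.52 log2 units (adjusted p = 0.0033), a call lost under quantile normalization. For Klf1, which drives adult beta globin, signals were 19266, 26204, 23306, 20529 and 18672 at 0 h and 38330.1, 24530.3, 34068 and 25191 at 24 h. Replicates 1 and 3 at 24 h were high and the other 2 lay within the 0 h range, so that the log2 change of 0.48 ± 0.16 (SE, adjusted p = 0.0138) lost its call without replicate 1 (adjusted p = 0.0625), under quantile normalization and in 3 other alternatives. Myb, a factor of immature progenitors that is shut off as red cells mature, fell by 0.93 log2 units (adjusted p = 1.01e-05). The adaptor Ldb1 fell by 1.15 log2 units (adjusted p = 0.00017).

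Products of maturing red cells were bright at both times. Alas2, the first enzyme of heme synthesis in red cells, rose from signals of 23013, 28070.4, 24854, 22117 and 20117 to 72574, 32286, 41923 and 39928, with no overlap and a change of 0.92 ± 0.21 (SE, adjusted p = 0.000822). Of 13 heme genes 6 rose and 3 fell with the authors' scaling, against 1 and 4 after quantile normalization. The heme pathway transporter Abcb6 fell by 0.51 log2 units (adjusted p = 0.000391) and the glycine carrier Slc25a38 by 0.65 log2 units (adjusted p = 0.00146). Among globin genes that could be tested, the embryonic genes Hbb-bh1 and Hbb-y rose by 1.02 and 0.75 log2 units (adjusted p = 0.000378 and 0.02), the latter a call lost without replicate 1 at 24 h (adjusted p = 0.125) and under quantile normalization. Iron genes split, with 4 of 15 up and 5 down, or 2 and 7 after quantile normalization and 6 and 4 after median centring. The first 2 counts were near the shares of all genes tested, 20.4% up and 30.6% down. The transferrin receptor Tfrc rose by 0.72 log2 units (adjusted p = 0.00063), while its homologue Tfr2 fell by 1.22 log2 units (adjusted p = 2.06e-06), its partner Hfe by 1.47 log2 units (adjusted p = 4.32e-06) and the iron-sensing aconitase Aco1 by 1.37 log2 units (adjusted p = 1.62e-05).

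Of 23 genes of the red cell membrane and surface, 11 rose and 3 fell, or 6 and 4 after quantile normalization. The skeleton protein tropomodulin (Tmod1) rose by 0.90 log2 units (adjusted p = 9.14e-05) and glycophorin C (Gypc) by 0.84 log2 units (adjusted p = 1.34e-06). The anion exchanger Slc4a1 rose by 0.65 log2 units (adjusted p = 0.00941), a call lost without replicate 1 at 24 h (adjusted p = 0.0542) and under quantile normalization. The water channel Aqp1, also a gene of endothelium, went the other way with signals of 4624, 4612, 3962, 4992 and 3436 at 0 h and 1042, 464, 498 and 426 at 24 h. Its arrays did not overlap, with a log2 change of -2.85 ± 0.23 (SE, adjusted p = 9.32e-10). The urea transporter Slc14a1 fell by 1.17 log2 units (adjusted p = 5.18e-09). Genes of late erythroid clearance, that is autophagy, ubiquitin conjugation and enucleation, were higher in 19 of 29 cases and lower in 1. The autophagosome protein Map1lc3b had signals of 10926, 9842, 10179, 8605 and 15538 at 0 h and 42859, 19589, 24901 and 27697 at 24 h. All 24 h arrays exceeded all 0 h arrays, with a log2 change of 1.35 ± 0.19 (SE, adjusted p = 4.40e-06). The ubiquitin-conjugating enzymes Ube2h and Ube2l6 rose by 1.31 and 1.23 log2 units (adjusted p = 5.74e-08 and 1.80e-07). Ube2o, the enzyme that clears ribosomes from reticulocytes, rose by 0.69 log2 units (adjusted p = 0.00236). In WT 17 of the 29 clearance genes rose and none fell (median 0.81, against 0.52 in Rb1KO). By limma's test of the difference from the WT change, described below, 2 of the 29 had a lower change in Rb1KO. Among all genes tested 0.504% did. In p107KO 15 of the 29 rose and none fell (median 0.58), where 11.5% of all genes tested rose and 16.7% fell. None of the 29 passed the test of the difference from the p107KO change (median difference -0.03), where 0.302% of all genes tested did.

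Receptors and feedback genes of erythropoietin and KIT signalling moved both ways, with 9 of 23 up and 8 down. The ligand Kitl, made by stroma, fell by 3.50 log2 units (adjusted p = 5.27e-09). Its receptor Kit had signals of 1459, 1058, 1143, 1373 and 757 at 0 h and 304, 393, 170.4 and 314 at 24 h. The highest 24 h array was below the lowest 0 h array, with a log2 change of -1.88 ± 0.21 (SE, adjusted p = 1.23e-07). The erythropoietin receptor Epor fell by 0.98 log2 units (adjusted p = 0.000144), with overlap between the groups. Cish, a STAT5 target that inhibits cytokine receptors, was at 703, 729, 692, 803 and 631 at 0 h and at 2916, 2881, 4277 and 2477 at 24 h. That rise was 2.07 ± 0.13 (SE, adjusted p = 2.57e-11), and Socs2, a related inhibitor, rose by 1.37 log2 units (adjusted p = 8.29e-07). The kinase gene Pim1 rose by 0.71 log2 units (adjusted p = 2.41e-06). Among 12 genes of the BCL2 family 3 rose and 3 fell, where 20.4% of all genes tested rose and 30.6% fell. Bcl2 itself fell by 1.75 log2 units (adjusted p = 7.39e-07), and the death promoters Bbc3 (PUMA) and Pmaip1 (NOXA) rose by 1.88 and 1.27 log2 units (adjusted p = 4.88e-08 and 1.65e-05).

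Interferon-stimulated genes gave the most uniform rise: 24 of 24 were higher and none was lower, with a median of 2.29 against -0.09 for all genes tested. Many antiviral genes that interferons raise carry an element of GAAA repeats in their promoters. The RefSeq promoters of assembly GRCm38.p6, from 250 bases before to 50 bases after each gene's start, were searched for GAAA followed, after any 2 bases, by GAAA, on both strands. The letters were in 11 of the 21 list members with a promoter there (52.4%) and in 3.63% of the promoters of genes tested. Promoters of Ifit1 (chr19:34640639-34640938, plus strand) and Irgm1 (chr11:48871371-48871670, minus strand) are shown 5′ to 3′ because each holds 2 matches, in capitals, which overlap in Irgm1. A match is a description of the letters and not a bound site.
Ifit1: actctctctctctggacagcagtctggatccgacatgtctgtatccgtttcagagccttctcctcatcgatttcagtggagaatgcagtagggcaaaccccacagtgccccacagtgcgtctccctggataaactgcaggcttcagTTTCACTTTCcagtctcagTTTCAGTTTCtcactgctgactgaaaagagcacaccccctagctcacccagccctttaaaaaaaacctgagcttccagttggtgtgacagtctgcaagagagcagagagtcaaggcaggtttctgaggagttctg
Irgm1: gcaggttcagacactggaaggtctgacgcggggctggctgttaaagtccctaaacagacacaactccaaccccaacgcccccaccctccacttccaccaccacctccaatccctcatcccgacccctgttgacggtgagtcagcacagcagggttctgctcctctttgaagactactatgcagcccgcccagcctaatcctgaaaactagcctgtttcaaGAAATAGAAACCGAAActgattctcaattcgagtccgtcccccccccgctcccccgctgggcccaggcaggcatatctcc

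Ifit1, which binds viral RNA, had the largest log2 change upward with a pseudocount of 32, a rank that depends on this setting because its 0 h arrays were dim. Its signals were 56.7, 7.9, 18.2, 25.9 and 62.8 at 0 h and 3146, 3529.9, 2742 and 3072 at 24 h. Every 0 h array was at the floor and every 24 h array was bright, with a log2 change of 5.65 ± 0.29 (SE, adjusted p = 5.78e-13). Irgm1, a GTPase that attacks vacuoles of microbes, was at 636, 502, 478, 392 and 510.4 at 0 h and at 5807, 8023, 7640.5 and 7861 at 24 h. Its change was 3.78 ± 0.23 (SE, adjusted p = 1.16e-11), again with no overlap.

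Inducers, sensors and effectors rose together. Irf7, the factor that amplifies interferon production, rose by 4.15 log2 units (adjusted p = 1.41e-11) and Irf9 by 2.79 log2 units (adjusted p = 5.63e-13). The RNA sensor Ifih1 (MDA5) rose by 3.88 log2 units (adjusted p = 1.72e-11). Usp18, the protease that removes ISG15 and damps the receptor, had signals of 461, 369, 295, 324 and 250.2 at 0 h and 12298, 15556, 12476 and 13892 at 24 h. Its 24 h arrays were all high, with a log2 change of 5.21 ± 0.27 (SE, adjusted p = 4.31e-13). The antiviral radical enzyme Rsad2 (viperin) rose by 3.51 log2 units (adjusted p = 6.66e-12), the ADP-ribosyltransferase Parp12 by 3.91 log2 units (adjusted p = 3.74e-11) and the chaperone-like Rtp4 by 4.0 log2 units (adjusted p = 3.07e-10). Psmb9, a subunit of the immunoproteasome, showed a smaller rise of 0.68 (adjusted p = 0.00032).

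Another programme with large rises was the integrated stress response, in which the kinases that sense amino acid shortage, misfolded protein, double-stranded RNA or heme shortage raise ATF4. ATF4 with a CEBP partner binds composite elements of the form TGATGNAA. These letters, on either strand, were in 6 of 25 list promoters (24.0%) and in 2.68% of the promoters of genes tested. Trib3 (chr2:152344011-152344310, minus strand) and Asns (chr6:7693160-7693459, minus strand) are shown because both rose, with the match in capitals.
Trib3: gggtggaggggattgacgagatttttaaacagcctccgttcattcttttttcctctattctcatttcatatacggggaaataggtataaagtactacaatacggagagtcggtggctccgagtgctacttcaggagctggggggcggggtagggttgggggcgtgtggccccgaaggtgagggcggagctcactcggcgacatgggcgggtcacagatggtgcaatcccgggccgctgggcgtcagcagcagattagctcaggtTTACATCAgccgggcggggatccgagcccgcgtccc
Asns: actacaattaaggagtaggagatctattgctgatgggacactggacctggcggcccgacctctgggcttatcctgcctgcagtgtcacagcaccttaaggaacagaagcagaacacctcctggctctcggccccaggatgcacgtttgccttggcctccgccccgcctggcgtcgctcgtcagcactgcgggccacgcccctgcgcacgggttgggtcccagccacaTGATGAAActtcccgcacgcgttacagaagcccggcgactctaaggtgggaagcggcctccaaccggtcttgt

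Of 26 genes of the integrated stress and unfolded protein responses, 13 rose and 7 fell. Trib3, a pseudokinase that limits the response, had signals of 249, 196, 266, 224 and 279.8 at 0 h and 13189.6, 7585, 7762 and 6839 at 24 h. The 2 groups were far apart, with a log2 change of 4.97 ± 0.24 (SE, adjusted p = 1.39e-13). Asns, asparagine synthetase, rose by 1.12 log2 units (adjusted p = 6.43e-08), from 9112, 8982, 12007, 11478 and 9676 to 22656, 20772, 24103 and 21227. Ddit3 (CHOP), a factor of stress-induced death, was at 868, 1025, 1059.7, 1042 and 1171 at 0 h and at 15169.7, 11729.7, 12261 and 12636 at 24 h. That rise was 3.61 ± 0.13 (SE, adjusted p = 1.87e-15). The glutathione-degrading enzyme Chac1 rose by 2.68 log2 units (adjusted p = 3.79e-11), the factor Atf5 by 2.61 log2 units (adjusted p = 1.12e-08) and Atf4 itself by 1.16 log2 units (adjusted p = 2.83e-08). Among the 7 that fell, the disulfide isomerase Pdia4 fell by 2.05 log2 units (adjusted p = 7.01e-07), and the chaperone Hspa5 (BiP) fell by 0.50 log2 units (adjusted p = 0.0115), a call lost after median centring and without the 4 arrays that stood apart.

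Targets of p53 rose in 13 of 23 cases and fell in 2 (median 1.23). Cdkn1a, which encodes the kinase inhibitor p21, had signals of 758, 341, 498, 466 and 780.4 at 0 h and 31928, 18125, 19289.8 and 21161 at 24 h. The lowest 24 h array was many times brighter than the highest 0 h array, with a log2 change of 5.26 ± 0.19 (SE, adjusted p = 3.22e-15), a fold of 38.4. Ccng1, a cyclin that acts in feedback to p53, rose by 3.11 log2 units (adjusted p = 6.32e-13), the nuclear stress protein Trp53inp1 by 3.06 log2 units (adjusted p = 6.10e-14) and the p53 ligase Mdm2 by 1.34 log2 units (adjusted p = 1.66e-06). Gadd45a, a growth arrest gene, rose by 1.46 log2 units (adjusted p = 9.70e-09) and Ei24 by 1.87 log2 units (adjusted p = 5.95e-11). The lower pair was Perp, a desmosome protein, and Trp53i11, at -2.19 and -1.28 log2 units (adjusted p = 4.02e-06 and 0.00499). Among other kinase inhibitors Cdkn2c (p18) rose by 0.89 log2 units (adjusted p = 5.00e-06). Of the 6 kinase inhibitors tested, 1 had a lower change in Rb1KO than in WT by limma's test of the difference, described below. In that test 4 of the 6 (66.7%) had an unadjusted p under 0.05, against 10.8% of all genes tested. The differences of the 6 went both ways, with a median of 0.02 log2 units.

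Antioxidant genes regulated by NRF2 were higher in 14 of 21 cases and lower in 3 (median 0.64). The quinone reductase Nqo1 had signals of 577, 514, 501, 514 and 417 at 0 h and 4845, 3594, 3765 and 4414 at 24 h. Its arrays did not overlap, with a log2 change of 2.96 ± 0.19 (SE, adjusted p = 1.62e-11). Sulfiredoxin (Srxn1) rose by 2.74 log2 units (adjusted p = 1.27e-10) and the cystine carrier Slc7a11 by 2.26 log2 units (adjusted p = 2.48e-07). Heme oxygenase 1 (Hmox1) did not pass, with signals of 1796, 759, 898, 1678 and 443 at 0 h and 721, 1140.4, 619 and 900 at 24 h and a change of -0.25 ± 0.34 (SE, adjusted p = 0.559). The 3 that fell were the glutathione transferases Gsta4 and Gstm1 and Osgin1, at -2.12, -1.22 and -1.10 log2 units (adjusted p = 0.000234, 5.04e-06 and 0.00213).

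Immediate early genes, which answer growth factors and stress within minutes, were higher in 10 of 19 cases and lower in 3. The AP-1 subunits Jun, Jund and Fos rose by 2.18, 1.84 and 1.66 log2 units (adjusted p = 2.55e-09, 1.84e-06 and 1.26e-06), and Atf3, a stress-induced member of the same family, rose by 2.33 log2 units (adjusted p = 4.62e-07). Myc fell by 0.92 log2 units (adjusted p = 9.94e-05). Of 13 chaperone genes 6 rose and 2 fell. The inducible Hsp70 gene Hspa1b had signals of 1494, 1334, 1642, 1190.2 and 2560.3 at 0 h and 16528, 7799, 13287 and 15472 at 24 h. Both groups were spread, yet they did not overlap, with a log2 change of 2.98 ± 0.23 (SE, adjusted p = 5.21e-10). Its near-identical neighbour Hspa1a gave 2.71 (adjusted p = 3.21e-09), and probe sets may read both. The mitochondrial chaperones Hspd1 and Hspe1 fell by 1.17 log2 units (adjusted p = 9.01e-07) and 0.73 log2 units (adjusted p = 0.000114).

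**Figure D3:**
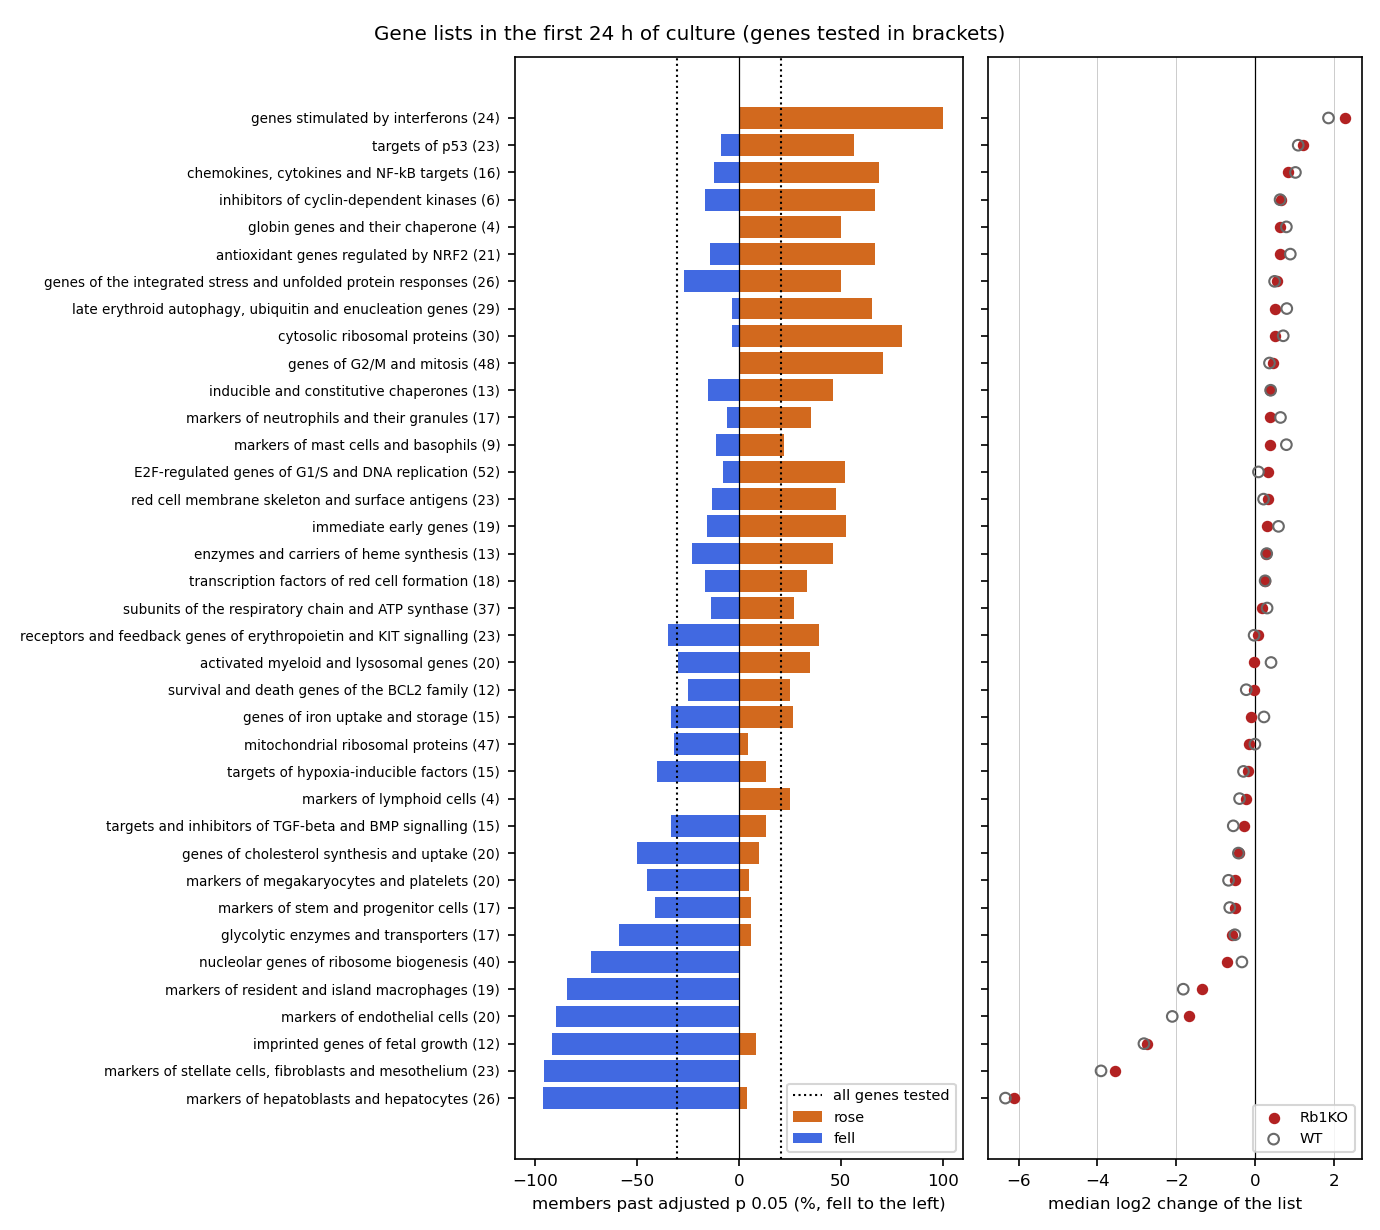
Left, share of each list's tested genes that rose (right of 0) or fell (left of 0) in Rb1KO at 24 h past an adjusted p of 0.05, with dotted lines at the shares of all genes tested, 20.4% and 30.6%. Right, median log2 change of each list in Rb1KO and WT, from -6.13 for hepatocyte markers to 2.29 for interferon-stimulated genes in Rb1KO. With quantile normalization the counts of the lists with small medians change: cytosolic ribosomal proteins drop to 4 rises of 30 and respiratory chain subunits to 0 of 37.

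Cell cycle genes, the classical output of the RB1 pathway, were followed in 2 lists. Of 52 E2F-regulated genes that act at G1/S or copy DNA, 27 rose and 4 fell (median 0.34), or 17 and 5 after quantile normalization. The cyclin E gene Ccne2 had signals of 4756, 4246, 4709, 3605 and 8865 at 0 h and 15049.8, 9246, 11735 and 15199 at 24 h. All 24 h arrays were above all 0 h arrays, with a log2 change of 1.33 ± 0.20 (SE, adjusted p = 7.12e-06). Its relative Ccne1 and the activator E2f1 did not pass, with log2 changes of -0.01 ± 0.15 (SE, adjusted p = 0.967) and -0.10 ± 0.20 (SE, adjusted p = 0.688), and their signs depended on the scaling. E2f1 passed as a fall without replicate 5 at 0 h (adjusted p = 0.0403) and without the 4 arrays that stood apart. The histone chaperone Asf1b rose by 1.28 log2 units (adjusted p = 4.02e-08), the repressor E2f7 by 0.92 log2 units (adjusted p = 4.07e-06) and the clamp loader subunit Rfc4 by 0.73 log2 units (adjusted p = 2.39e-05). Mcm5, a subunit of the replicative helicase, rose by 0.45 log2 units (adjusted p = 0.00361), a call lost under quantile normalization and when probe sets were averaged. The polymerase delta subunit Pold1 fell by 0.73 log2 units (adjusted p = 0.00107).

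The letters TTTNGCGC, a common form of the E2F element, were found on either strand in 14 of 44 promoters of this list (31.8%) and in 2.97% of the promoters of genes tested. The Mcm5 promoter (chr8:75109259-75109558, plus strand) is shown because it holds a match on each strand, which overlap and are in capitals.
Mcm5: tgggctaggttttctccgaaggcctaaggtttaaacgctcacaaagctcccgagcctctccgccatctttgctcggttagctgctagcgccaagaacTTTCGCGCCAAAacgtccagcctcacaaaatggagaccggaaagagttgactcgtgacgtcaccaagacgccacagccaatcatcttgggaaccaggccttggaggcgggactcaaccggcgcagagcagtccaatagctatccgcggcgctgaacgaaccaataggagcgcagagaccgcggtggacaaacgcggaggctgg

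Genes of G2 and mitosis rose in 34 of 48 cases and fell in none (median 0.46), or in 25 with 1 fall after quantile normalization. Smc4, a condensin subunit that compacts chromosomes, had signals of 1171, 5121, 5101, 1508 and 3870 at 0 h and 15387, 22687, 28009 and 32225 at 24 h. The 0 h arrays varied several-fold among themselves but stayed below all 24 h arrays, with a log2 change of 3.05 ± 0.36 (SE, adjusted p = 3.00e-07). The proliferation marker Mki67 rose by 1.28 log2 units (adjusted p = 4.21e-07), the kinetochore protein Ndc80 by 1.69 log2 units (adjusted p = 1.96e-05) and the condensin subunit Ncapg by 1.01 log2 units (adjusted p = 1.81e-05). The mitotic kinase Cdk1 rose by 0.52 log2 units (adjusted p = 0.000177). By limma's test of the difference from the WT change, described below, none of the 52 and none of the 48 genes passed, where 0.824% of all genes tested did. At an unadjusted p under 0.05 there were 10 of the 52 (19.2%) and 4 of the 48 (8.33%), against 10.8% of all genes tested.

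Nucleolar genes moved against the cell cycle lists. Of 40 genes of ribosome biogenesis 29 fell and none rose (median -0.72). In WT 12 of them fell and none rose (median -0.33), where 21.9% of all genes tested fell and 15% rose. No member's change differed between the genotypes by limma's test of the difference, with 7 of the 40 (17.5%) at an unadjusted p under 0.05. Gnl3 (nucleostemin) had signals of 4322, 4338, 4862, 4858 and 5309 at 0 h and 1140, 2052, 1737 and 1891 at 24 h. Its groups did not overlap, with a log2 change of -1.49 ± 0.15 (SE, adjusted p = 3.71e-08). WT arrays for Gnl3 were 4329, 3928 and 4152 at 0 h and 2383 and 3031 at 24 h, a change of -0.61 (adjusted p = 0.023), and the difference between the genotypes had an adjusted p of 0.13. The processome subunits Utp20 and Heatr1 fell by 1.58 log2 units (adjusted p = 1.50e-08) and 1.19 log2 units (adjusted p = 7.27e-06), and the RNA polymerase I subunit Polr1b by 1.69 log2 units (adjusted p = 1.64e-06). The nucleolar chaperone Npm1 fell by 0.71 log2 units (adjusted p = 0.000424). Cytosolic ribosomal proteins instead rose in 24 of 30 cases and fell in 1, but in 4 and 1 after quantile normalization. Rps25 was the one that fell, with a log2 change of -1.55 ± 0.21 (SE, adjusted p = 2.20e-06). Mitochondrial ribosomal proteins fell in 15 of 47 cases, near the 30.6% of all genes tested that fell, and rose in 2. Their median of -0.16 turned positive after median centring (0.09). Subunits of the respiratory chain and ATP synthase rose in 10 of 37 cases and fell in 5, against 0 and 8 after quantile normalization. Of all genes tested 20.4% rose and 30.6% fell in Rb1KO with the authors' scaling.

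Glycolytic and cholesterol genes were lower more often than higher. Of 17 glycolytic genes 10 fell and 1 rose (median -0.59), or 8 and 4 after median centring (median -0.34). Lactate dehydrogenase (Ldha) fell by 1.31 log2 units (adjusted p = 4.50e-07), from signals of 13752, 13762, 14279, 14819.7 and 8441 to 5396, 6449.5, 4509 and 4414, and triosephosphate isomerase (Tpi1) fell by 1.35 log2 units (adjusted p = 2.43e-07). The platelet-type phosphofructokinase Pfkp was the one that rose, with a log2 change of 1.24 ± 0.15 (SE, adjusted p = 4.13e-07). Pdk1, a kinase that diverts pyruvate from the mitochondria, fell by 1.92 log2 units (adjusted p = 2.55e-06). Among 15 targets of hypoxia-inducible factors 2 rose and 6 fell, with Ndrg1 and Vegfa among the falls at -1.56 and -0.91 log2 units (adjusted p = 1.42e-06 and 0.00298). Of 20 cholesterol genes 10 fell and 2 rose (median -0.41), or 7 and 5 after median centring (median -0.17). The reductase gene Dhcr7, which makes cholesterol in the last step, had signals of 1441, 2309, 2686, 2420.1 and 2266 at 0 h and 31.1, 165, 212 and 114 at 24 h. Its arrays did not overlap, with a log2 change of -3.93 ± 0.27 (SE, adjusted p = 5.42e-11). Hmgcs1, the enzyme before HMG-CoA reductase, fell by 1.36 log2 units (adjusted p = 1.11e-07) and lanosterol synthase (Lss) by 1.40 log2 units (adjusted p = 1.39e-06). Hepatocytes are rich in these enzymes, and the hepatocyte marker sums above fell on the same arrays, a part in the result that was not tested.

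The same interval in WT gives the frame for these changes. In WT, 4025 of the same genes passed (36.9%), and 3383 passed in both genotypes, which is 60.8% of the Rb1KO calls and 84.0% of the WT calls. Of these 3371 went the same way and 12 opposite ways. Across all 10916 genes the Rb1KO and WT changes correlated with r of 0.91, a description over genes that share arrays and are not independent replicates. The counts of 5568 and 4025 come from 9 and 5 arrays and do not show that more genes changed without Rb1. A test of the difference, the Rb1KO change minus the WT change, called 90 genes (0.824%), 35 with a higher (0.321%) and 55 with a lower change in Rb1KO (0.504%), beside 1182 at an unadjusted p under 0.05. This count ran from 31 to 196 over the alternatives tried.

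**Figure D4:**
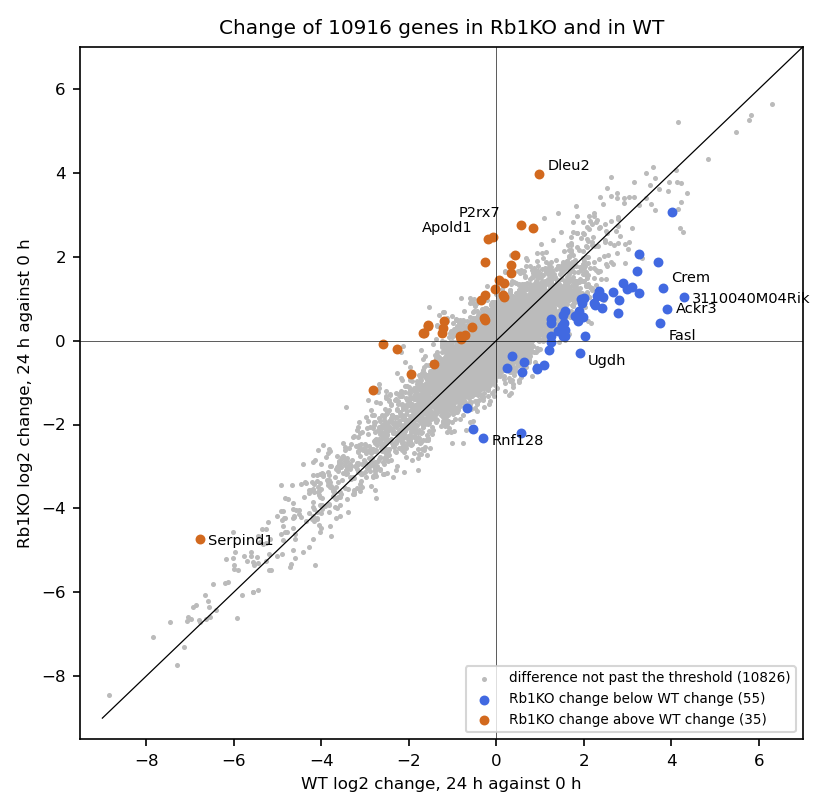
Log2 change from 0 h to 24 h of each of the 10916 genes tested, in WT (horizontal axis) and in Rb1KO (vertical axis), with a line where both are equal. Grey points are the 10826 genes whose difference did not pass the threshold, blue the 55 whose change was lower and orange the 35 whose change was higher in Rb1KO.

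The 55 genes with a lower change were mostly genes that culture raised in WT. In WT 49 of them rose and 1 fell, with a median change of 1.88, and in Rb1KO 34 rose and 11 fell, with a median of 0.57. The rule that chose them used the changes of each gene that these medians summarise. Arrays it did not use gave medians of 1.35 in p107KO and 0.20 in DKO. The DKO change, from 1 array at 24 h and with no test, was nearer the Rb1KO change than the WT change for 52 of the 55 (94.5%), and the p107KO change was nearer for 13 (23.6%). Over all genes tested these shares were 49.6% and 45.1%. The DKO array at 24 h is 1 of the 4 that stood apart, and DKO and WT arrays also differ in Y-linked signal.

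Fasl, the ligand of the death receptor FAS, had signals of 85.9, 101, 48.2, 59.5 and 107.2 at 0 h and 182, 80.7, 94.1 and 119.9 at 24 h in Rb1KO. WT arrays gave 21.1, 29.3 and 20.3 at 0 h and 849.5 and 598 at 24 h. WT thus rose on both arrays and Rb1KO stayed low, a difference in log2 change of -3.33 ± 0.46 (SE, adjusted p = 0.000331). The chemokine-scavenging receptor Ackr3 was at 396, 345, 447, 226 and 488 at 0 h and 1102, 332, 674 and 672 at 24 h in Rb1KO and at 317, 252 and 157 at 0 h and 3957 and 3942 at 24 h in WT. The groups of the 2 genotypes overlapped at 0 h and were apart at 24 h, with a difference of -3.16 ± 0.42 (SE, adjusted p = 0.000257). Crem, a transcription factor that answers cyclic AMP, was at 408, 358, 354 and 330.5 in Rb1KO and at 2264 and 2198 in WT at 24 h. Its difference was -2.55 ± 0.30 (SE, adjusted p = 5.87e-05). The uncharacterised transcript 3110040M04Rik differed by -3.22 ± 0.30 (SE, adjusted p = 2.97e-06), from 1254, 1249, 1293 and 1312 in Rb1KO against 7670 and 12412 in WT at 24 h.

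Ugdh, which makes UDP-glucuronate, had signals of 844, 720.3, 780.3, 589 and 597 at 0 h and 374, 639.8, 624 and 678 at 24 h in Rb1KO and did not pass there, while in WT it rose by 1.91 log2 units (adjusted p = 3.22e-06), a difference of -2.20 ± 0.32 (SE, adjusted p = 0.000507). Rnf128, a ubiquitin ligase of the endosome, fell in Rb1KO and did not pass in WT. Its Rb1KO signals were 2233, 2293, 2097, 1840.1 and 2594 at 0 h and 429.6, 434, 433 and 352 at 24 h and its WT signals 2756, 2374 and 2489 at 0 h and 2424 and 1739 at 24 h. All Rb1KO arrays at 24 h were below all others, with a difference of -2.03 ± 0.23 (SE, adjusted p = 4.01e-05). Suco, a membrane protein of the endoplasmic reticulum, rose by 1.04 log2 units in Rb1KO and by 2.44 log2 units in WT (difference adjusted p = 0.00286). Sertad3, a transcriptional cofactor, changed by -0.59 and 1.08 log2 units (difference adjusted p = 0.00262), and the histone gene H2aw by -0.22 and 1.21 log2 units (difference adjusted p = 0.000346).

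Members of pathways described above were among these differences. Cish rose by 3.26 log2 units in WT against 2.07 in Rb1KO (difference adjusted p = 0.00853), and Pim1 by 1.57 log2 units against 0.71 (difference adjusted p = 0.00853). Both calls were lost without replicate 1 of WT at 24 h (adjusted p = 0.085 and 0.085). The fatty acid carrier Fabp4 was at 111, 118, 101 and 131 in Rb1KO and at 679.7 and 1485 in WT at 24 h. The 2 WT arrays differed widely, and the difference of -2.75 ± 0.50 (SE, adjusted p = 0.0069) was lost without replicate 2 of WT at 24 h (adjusted p = 0.105). The long noncoding RNA Neat1, which builds paraspeckles, rose by 3.69 log2 units in WT against 1.88 in Rb1KO (difference adjusted p = 0.00395), a call lost when probe sets were averaged.

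Of the 35 genes with a higher change, 20 rose and 4 fell in Rb1KO (median 0.49), and 2 rose and 17 fell in WT (median -0.34). Medians in p107KO and DKO, which did not choose them, were -0.21 and 0.41. The DKO change was nearer the Rb1KO change for 28 (80.0%) and the p107KO change for 6 (17.1%), with the limits of the DKO array given above. Dleu2, the noncoding host transcript of miR-15a and miR-16-1, stood out with signals of 634, 573, 622, 572 and 928 at 0 h and 14839, 8722, 8477 and 12158 at 24 h in Rb1KO. WT signals were 326, 279 and 345 at 0 h and 697 and 615 at 24 h. Every Rb1KO array at 24 h was far above every other, with a rise of 3.97 ± 0.18 (SE, adjusted p = 5.72e-14) and a difference of 2.99 ± 0.30 (SE, adjusted p = 5.91e-06). Apold1, a gene of activated endothelium, was at 265, 157, 168, 192 and 212 at 0 h and 985, 1134, 1051 and 1982 at 24 h in Rb1KO and at 137, 192 and 206 at 0 h and 139.8 and 193 at 24 h in WT. It rose on all Rb1KO arrays while endothelial markers fell, with a difference of 2.56 ± 0.33 (SE, adjusted p = 0.000239). The ATP-gated channel P2rx7 was at 822, 575, 479 and 727 in Rb1KO and at 116 and 150.1 in WT at 24 h, with a difference of 2.18 ± 0.37 (SE, adjusted p = 0.00395).

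Haus4, a subunit of the augmin complex of the spindle, had signals of 2059, 2682, 2483, 2169 and 2071 at 0 h and 7250, 5702, 5602 and 6511 at 24 h in Rb1KO and 2078, 2158 and 2058 at 0 h and 2256 and 2164 at 24 h in WT. All 24 h Rb1KO arrays were above all the others, with a difference of 1.36 ± 0.18 (SE, adjusted p = 0.000257). Rdm1, a protein of the RAD52 family, rose by 1.81 log2 units in Rb1KO and changed by 0.33 log2 units in WT (difference adjusted p = 0.00759), a call lost without replicate 2 of WT at 24 h (adjusted p = 0.1). Nrm, a protein of the inner nuclear membrane, changed by 0.47 and -1.19 log2 units (difference adjusted p = 0.000257), a call lost when probe sets were averaged. Serpind1 (heparin cofactor II), a hepatocyte product, fell by 4.73 log2 units (adjusted p = 5.54e-14) in Rb1KO and fell by 6.78 log2 units in WT. Its signals at 24 h were 185, 105, 126 and 115 in Rb1KO and 18.2 and 14.6 in WT, close to the floor in WT, and the difference of 2.05 log2 units ran from 1.29 to 3.22 over the alternatives.

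**Figure D5:**
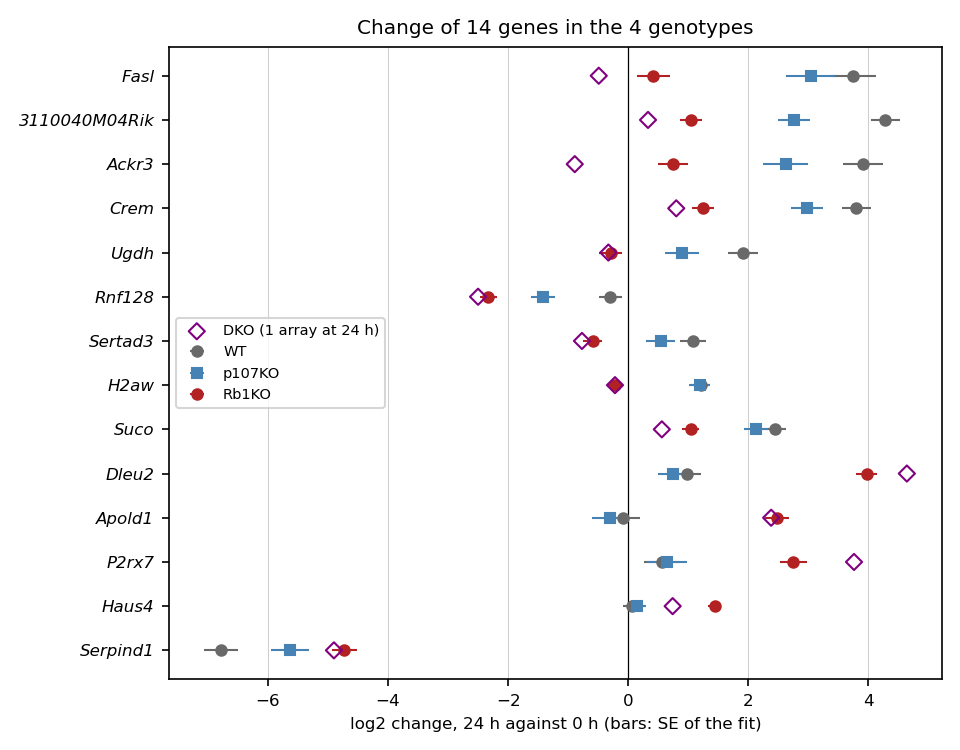
Log2 change from 0 h to 24 h of 14 genes in each genotype, with SE of the fit as bars except for DKO. The DKO has 1 array at 24 h, which is 1 of the 4 that stood apart. Of the 22 genes named here for their difference between Rb1KO and WT, these 14 kept its call in all alternatives tried, which were not run singly for the other called genes. The DKO value of Dleu2 was 4.64, beside 3.97 in Rb1KO, 0.98 in WT and 0.75 in p107KO.

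Against p107KO, a comparison that uses the same Rb1KO arrays as the one with WT, the difference test called 33 genes (0.302%), 25 higher (0.229%) and 8 lower (0.0733%) in Rb1KO, with 949 at an unadjusted p under 0.05. Of the 55 genes with a lower change than in WT, 8 also passed against p107KO, and of the 35 with a higher change 14 did. In p107KO itself 3070 genes passed (28.1%). Dleu2 changed by 0.75 log2 units in p107KO, a difference of 3.22 ± 0.32 (SE, adjusted p = 9.20e-06). Apold1 changed by -0.31 log2 units in p107KO, a difference of 2.79 ± 0.35 (SE, adjusted p = 0.000393). Fasl and Crem rose in p107KO by 3.04 and 2.98 log2 units (difference adjusted p = 0.0167 and 0.0167), and both differences lost their call without replicate 1 of p107KO at 0 h (adjusted p = 0.197 and 0.122) and without other single p107KO arrays.

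At 48 h there were 2 Rb1KO and 2 WT arrays, and no test was made. For 44 of the 55 genes with a lower change both Rb1KO arrays at 48 h were above every Rb1KO array at 24 h (80.0%, against 20% of all genes tested). Because the 24 h arrays chose these genes, that share is a description. Ackr3 had 48 h signals of 4611 and 4060.3 in Rb1KO and 11331 and 11512 in WT, and Crem of 1689 and 1408 in Rb1KO and 4073 and 7279 in WT. Ugdh stood at 2682 and 2148 in Rb1KO and 5977 and 9554 in WT, and Rnf128 at 3343 and 2179 in Rb1KO and 6588 and 6887 in WT. For these 4 genes both Rb1KO arrays were still below both WT arrays. For the 35 genes with a higher change both Rb1KO arrays at 48 h were below every one at 24 h in 10 cases (28.6%, against 15.8% of all genes). At 48 h Dleu2 was at 10702 and 9757 in Rb1KO and 712 and 1037 in WT, and Haus4 at 4329 and 5288 in Rb1KO and 1243 and 1132 in WT. Both stayed higher in Rb1KO.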

How the data were processed

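RNA of 27 samples was read on Affymetrix expression arrays, per the labels. Values were used as deposited: linear signal intensities, which the submitters' processing notes tie to MAS5 and GCOS 1.4. With 2% of probe sets trimmed at either end, array means ran from 491.8 to 498.0. Of 45037 probe sets, 34945 had 1 gene symbol, 932 several and 9160 none in the platform annotation, and 34741 matched the RefSeq gene table. The brightest probe set stood for each of 18193 genes. After the dimmest 40% were dropped, 10916 genes were tested as log2(signal + 32), which pulls changes of dim genes toward 0. Limma 3.58.1 in R 4.3.3 estimated 12 group means over all arrays (trend on, 15 residual degrees of freedom, prior 7.17), with two-sided tests and Benjamini-Hochberg adjustment at 0.05. Detection calls were not used. Plots were made in Python 3.11.15 using matplotlib 3.10.9. Promoters are from RefSeq, assembly GRCm38.p6.

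The arrays compared and the 37 gene lists were chosen with earlier results of these data known. The rule for named genes took Rb1, Rbl1 and Rbl2. It also took the 15 largest rises and 15 largest falls past the threshold whose higher group mean exceeded the median gene and whose arrays did not overlap, without the overlap condition for differences between genotypes. From each list it took the first 3 genes and the 6 with the smallest adjusted p. Not every gene so taken is named, and some genes outside the rule were picked after their values were seen. The fit was tested on simulated data. Alternatives changed the pseudocount (1 or 100), the filter (none or 60%), the scaling (quantile or median centring), the probe set rule (mean), the array weights, the arrays in the fit, a replicate block and a term for Y-linked signal (Eif2s3y above 200), or left arrays out. Arrays have no read depth, so precision is set by how many there are.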

Additional observations from a re-analysis of the deposited data

Results flagged for a closer look

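Within the 5 Rb1KO arrays at 0 h and the 4 at 24 h, 26 of 380 sets of values of the named genes held 1 array far from the others by Dixon's test (6.84%), where chance marks about 1 in 20. On replicate 1 at 0 h, Dhcr7 at 1441 stood low. On replicate 2 at 0 h, Acod1 at 53.3 stood high. On replicate 4 at 0 h, Aco1 at 1179.5, Id2 at 822 and Lgals3 at 968 stood low. On replicate 5 at 0 h, Dleu2 at 928 and Kitl at 1137 stood high. On replicate 5 at 0 h, C1qa at 290.3, Cdk1 at 6576, Cebpb at 149.7, Dlk1 at 10516, Id3 at 176, Ldha at 8441, Lss at 967 and Myb at 2948 stood low. On replicate 1 at 24 h, Aqp1 at 1042, Osgin1 at 265 and Ppbp at 3998 stood high. On replicate 1 at 24 h, Irgm1 at 5807, Npm1 at 7954 and Ugdh at 374 stood low. On replicate 2 at 24 h, Ncapg at 4227 stood low. On replicate 3 at 24 h, Tfr2 at 3021 stood high. On replicate 3 at 24 h, Myb at 1664 stood low. On replicate 4 at 24 h, Hnf4a at 262 stood high. On replicate 4 at 24 h, Rnf128 at 352 stood low. Values are signals, and no cause was tested.

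The log2 change from 0 h to 24 h differed between Rb1KO and WT by limma's test of the difference for these named genes. Rb1KO minus WT was lower for 3110040M04Rik by -3.22, Ackr3 by -3.16, Cish by -1.19, Crem by -2.55, Fabp4 by -2.75, Fasl by -3.33, Fos by -1.56, H2aw by -1.43, Neat1 by -1.81, Pim1 by -0.86, Rnf128 by -2.03, Sertad3 by -1.67, Suco by -1.40, Trp53inp1 by -0.96 and Ugdh by -2.20. It was higher for Apold1 by 2.56, Dleu2 by 2.99, Haus4 by 1.36, Nrm by 1.66, P2rx7 by 2.18, Rdm1 by 1.47 and Serpind1 by 2.05. Against p107KO, set beside the same Rb1KO arrays, the Rb1KO change was lower for 3110040M04Rik by -1.70, Cish by -1.13, Crem by -1.72, Fasl by -2.63 and H2aw by -1.42. It was higher for Apold1 by 2.79, Dleu2 by 3.22, Ei24 by 1.27, Haus4 by 1.30, Nrm by 1.40, P2rx7 by 2.09 and Rdm1 by 1.90. Fos and Trp53inp1 sat close to the threshold (adjusted p = 0.045 and 0.0499), with adjusted p up to 0.311 and 0.278 in the alternatives. The Serpind1 difference is against WT arrays near the floor at 24 h and ran from 1.29 to 3.22 over the alternatives, so its size is uncertain. The p107KO difference of Cish was close to the threshold, with adjusted p of 0.0412 and up to 0.294.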

How the results depend on the processing

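The number of genes changed in Rb1KO stayed within 1.5 times of 5568 in every alternative tried, from 3910 with the lowest 60% of genes left out to 5976, and that of WT (4025) likewise, from 2809 to 5019. The difference from WT was less stable, and with Y-linked signal as a term it held 68 genes. Its 90 genes became 196 with array weights, 168 without the 4 arrays that stood apart, 55 with only the arrays of the groups compared, and 44 to 110 when single arrays were left out, where each of the 5 WT arrays brought it to between 44 and 54. Leaving out 1 WT array at 24 h leaves a lone array that is assumed to vary like the other groups. The difference from p107KO, 33 genes, became 19 with no filter on low signal, 6 with only the arrays of the groups compared, 13 without the 4 arrays apart, and 10 to 68 when single arrays were left out, each p107KO array moving it. The p107KO change itself (3070) ran from 1948 to 2915 without single arrays, at the low end without replicate 1 at 0 h (1948) or replicate 1 at 24 h (1959). The causes were not tested.

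Replicate numbers did not pair the Rb1KO arrays: same-numbered arrays at 0 h and 24 h correlated in their deviations from the group means by 0.176, -0.031, 0.023 and -0.167. With the number as a replicate block, 5319 genes changed in Rb1KO and 3621 in WT, the difference from WT held 31 genes and that from p107KO 10. Of 190 named genes in the Rb1KO change, 172 kept direction and call in every alternative. In the difference from WT 14 of 22 did, and in that from p107KO 2 of 12. Genes short of the threshold turned in sign: Adgre1 to -0.04 without the 4 arrays apart, Ccne1 to 0.24 with median centring, 0.07 with probe sets averaged and between -0.09 and 0.07 without single arrays, E2f1 to 0.14 with centring and between -0.35 and 0.02 without single arrays, H2aw to 0.02 and 0.05 with centring and with probe sets averaged, and Rbl1 to -0.04 with probe sets averaged and between -0.03 and 0.27 without single arrays. Arrays have no read depth, and 5 and 4 of them per time limit the precision.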

Other observations

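Targets and inhibitors of TGF-beta and BMP signalling split in Rb1KO over the first 24 h, with 2 of 15 tested genes higher and 5 lower, or 3 and 3 after quantile normalization or median centring. The higher ones were Smad6, an inhibitor that BMP signalling induces, with signals of 334, 228, 341, 307 and 139 at 0 h and 1210, 891, 776 and 469 at 24 h, and Skil (SnoN), a repressor of SMAD complexes, at 977, 1229.9, 1143, 798 and 1562 at 0 h and 2723, 2108, 2178 and 3158 at 24 h. For both genes all 24 h arrays were above all 0 h arrays, with log2 changes of 1.51 ± 0.28 (SE, adjusted p = 0.000111) and 1.15 ± 0.16 (SE, adjusted p = 3.02e-06). The BMP target Id3 fell by 1.87 log2 units (adjusted p = 2.49e-05) and Id2, another inhibitor of helix-loop-helix factors, fell by 0.88 log2 units (adjusted p = 0.000728). Ltbp1, a matrix protein that stores latent TGF-beta and is made by stromal cells, fell by 2.57 log2 units (adjusted p = 2.37e-09). In WT the same list gave 1 rise and 5 falls. The 5 falls of 15 in Rb1KO were near the 30.6% of all genes tested.

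Among large rises not described above, Gda (guanine deaminase) belonged to no list. It went from signals of 293, 338, 229, 182 and 247 at 0 h to 3649, 2334, 2788 and 2459 at 24 h, a log2 change of 3.30 ± 0.17 (SE, adjusted p = 4.31e-13). Samd9l, a growth-restraining gene that interferon raises, rose by 3.40 log2 units (adjusted p = 1.70e-08). Of the stress response list, Sesn2 (sestrin 2) and the factor Cebpb rose by 3.52 and 3.26 log2 units (adjusted p = 9.83e-08 and 4.96e-09). In WT the changes of these 4 genes were 4.21, 2.92, 4.36 and 2.43 log2 units in the same order.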
